A study of Mus musculus with 16 samples.

Results

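The genes described here are 10 effector genes of basophils and mast cells: Mcpt8, Prss34, Cpa3, Fcer1a, Fcer1g, Cd200r3, Cyp11a1, Alox5, Il4 and Il6. They were taken by symbol, with no threshold on their values but with earlier results of these data known, and all 10 were found among the 27998 genes of the single-cell count matrices. The matrices hold lineage-depleted bone marrow cells of 16 C57BL/6 mice, 6 to 12 weeks old by the labels, in 4 groups of 4 mice. WT mice carried floxed Tet2 alleles without Cre, and Tet2-KO mice had lost Tet2 through Vav-Cre, which is active across the blood system. Mice of each genotype were injected into the peritoneum for 5 weeks, with vehicle or with a daily dose of 500 ng of IL1β per mouse. Since Cre was present in the Tet2-KO mice only, the Cre transgene and the loss of Tet2 cannot be told apart. The comparisons ask how long exposure to the cytokine IL1β, loss of Tet2 and their combination bear on the RNA of these genes.

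Basophils are rare granulocytes that, like mast cells, carry the high-affinity IgE receptor and release granule proteases, lipid mediators and cytokines when it is crosslinked. Both arise in the marrow from progenitors that express the transcription factor Gata2, and mast cells finish maturing in tissues. Mcpt8 and Prss34 encode serine proteases of mouse basophils, and Cpa3 a carboxypeptidase of mast cell and basophil granules. Fcer1a encodes the IgE-binding chain of the receptor and Fcer1g its signalling chain, which other Fc receptors of myeloid cells share. Cd200r3 encodes an activating receptor of the CD200 receptor family. Cyp11a1 makes pregnenolone from cholesterol, and Alox5 takes the first step of leukotriene synthesis. Il4 and Il6 encode secreted cytokines.

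Promoter sequences of 4 members are printed because they show the GATA motif found in most of the members' promoter windows. The windows are the 250 bases before the transcription start in RefSeq (GRCm38.p6), written 5′ to 3′ on the gene's own strand, with GATA motifs of either strand in capitals. For the granule protease Cpa3 the window is chr3:20242182-20242431 on the minus strand, with 1 motif starting 46 bases before the start. For the protease Prss34 it is chr17:25298144-25298393 on the plus strand, with 1 motif at 31 bases. For the receptor Cd200r3 it is chr16:44943428-44943677 on the plus strand, with motifs at 115, 39 and 33 bases, the last 2 side by side. For the cytokine Il6 it is chr5:30012864-30013113 on the plus strand, with 1 motif at 55 bases.
Cpa3: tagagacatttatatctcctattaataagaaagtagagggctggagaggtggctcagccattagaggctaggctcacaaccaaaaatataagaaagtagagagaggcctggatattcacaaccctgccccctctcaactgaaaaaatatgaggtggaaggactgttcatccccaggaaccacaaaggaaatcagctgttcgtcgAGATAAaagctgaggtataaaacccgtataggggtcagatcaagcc
Prss34: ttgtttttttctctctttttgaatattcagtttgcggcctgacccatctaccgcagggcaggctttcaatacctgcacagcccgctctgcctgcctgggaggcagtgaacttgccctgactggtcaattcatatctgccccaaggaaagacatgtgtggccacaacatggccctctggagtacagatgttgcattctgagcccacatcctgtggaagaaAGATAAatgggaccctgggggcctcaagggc
Cd200r3: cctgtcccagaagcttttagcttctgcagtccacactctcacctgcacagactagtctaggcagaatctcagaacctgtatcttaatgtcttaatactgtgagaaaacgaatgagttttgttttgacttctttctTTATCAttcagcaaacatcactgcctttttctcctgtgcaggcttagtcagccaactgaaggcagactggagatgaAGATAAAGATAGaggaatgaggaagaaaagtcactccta
Il6: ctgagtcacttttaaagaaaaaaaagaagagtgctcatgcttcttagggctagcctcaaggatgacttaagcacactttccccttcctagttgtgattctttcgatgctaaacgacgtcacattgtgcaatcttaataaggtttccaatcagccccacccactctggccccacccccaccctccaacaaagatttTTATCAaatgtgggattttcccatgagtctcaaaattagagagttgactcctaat

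The letters searched were AGATAA or AGATAG or TGATAA or TGATAG, on either strand. At least 1 of them was in 8 of the 12 RefSeq windows of the members, which belong to 8 of the 10 genes, and in 26.5% of 32851 windows of all genes. The windows of Mcpt8 and Fcer1g held none. A second motif of 6 letters, that of RUNX factors (TGTGGT or TGCGGT, both strands), was in 4 of the 12 windows and in 18.6% of all windows. These are matches of letters and no measure of binding.

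The 8 libraries held 121405 barcodes, 94917 of which passed the filters, and hashtag antibodies gave 57896 cells to a mouse, between 698 and 6432 per mouse. Each library pooled 2 mice of 1 group, so mice of a pool share a library, and no contrast between groups can be made within a pool. Hashtags left 34.9% of the filtered cells without a call and marked 4.15% as doublets. The loss was uneven between mice. Tet2-KO vehicle mouse 2 kept 1259 cells, and a mixture model for the hashtags, chosen after seeing the data, gave it 6615. The counts were 1421 and 7690 for WT IL1β mouse 4 and 698 and 3453 for WT vehicle mouse 2. For Tet2-KO IL1β mouse 1 they were 1426 and 4117, and for Tet2-KO IL1β mouse 2 they were 4485 and 4501. In 2 pools the share of cells with Xist RNA differed between the mice but was not near 0 or 100 in both (96.6% and 10.6% in WT vehicle mice 1 and 2, 21.5% and 98.5% in WT IL1β mice 3 and 4), so some cells there may be given to the other mouse of the same group. In the other pools the share was near 0 in both mice or near 100 in both, so Xist cannot show such an exchange there. Xist was found in most cells of WT vehicle mouse 1, WT IL1β mouse 4, Tet2-KO vehicle mice 1 and 2 and Tet2-KO IL1β mice 3 and 4. The makeup by Xist, and so by sex, differed between the genotypes and went with the pool in Tet2-KO mice. Its part in the results was not tested. Of the barcode sequences, 1.45% were found in more than 1 library. Tet2 itself gave 31.0 to 46.9 CPM (UMIs per 1000000 UMIs of the sum) in WT and 36.4 to 46.2 CPM in Tet2-KO vehicle mice, and with IL1β 53.4 to 61.7 CPM in WT and 59.1 to 77.9 CPM in Tet2-KO mice. The libraries count 3′ ends, and which part of the gene Cre removes is not given in the sources used here, so this level does not check the genotype.

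Cells were gated on marker genes that are not members. The basophil gate asked for at least 2 UMIs (unique molecular identifiers, 1 per counted molecule) of Ms4a2, the β chain of the IgE receptor, and at least 1 UMI of Hdc, Csrp3, Grm6 or Il3ra, and held 4714 cells. The Gata2+ progenitor gate (a UMI each of Gata2 and Kit, no Ms4a2) held 4860 cells, and the HSC-like gate (at least 2 of Hlf, Mecom, Procr, Fgd5 and Gcnt2, outside the basophil gate) held 2918. The 80 cells that met both the basophil and the HSC marker rule stayed in the basophil gate and are not in the HSC-like levels. Other cells with Ms4a2 stayed in the HSC-like gate, which held 112 Ms4a2 UMIs. The Gata2+ gate left out cells of both other gates. Median UMIs per cell were 3592.5, 6689.5 and 3893. The 3 gates held 27 to 664, 36 to 640 and 21 to 372 cells per mouse. Markers of mature mast cells were near 0 in the basophil gate, where Cma1 gave 31 UMIs, Tpsb2 and Mcpt4 gave 2 each and Tpsab1 gave 0 over all 16 mice. The gated cells are called basophils here after the markers of the gate. Low markers of mature mast cells do not tell basophils from immature mast cells or from progenitors of both. The 7 basophil markers, gate genes among them, summed to between 2272 and 4443 CPM per mouse. Markers of other cells were counted in this gate too. The 5 granulocyte progenitor markers summed to between 4908 and 10906 CPM, with medians of Elane, Mpo and Prtn3 below those of the whole marrow and of Ctsg (1721 against 1411 CPM) and Ms4a3 (564 against 466 CPM) above. Eosinophil markers summed to between 0 and 1835 CPM, and to 39.9 to 243 CPM in the whole marrow. Medians of Prg2 (516 against 149 CPM), Epx and Prg3 lay above those of the whole marrow, and that of Ear6 below. The group medians of the sum in the gate were 64.7 CPM in WT vehicle and 660 CPM in WT IL1β mice. In Tet2-KO mice they were 721 CPM with vehicle and 615 CPM with IL1β. The part of the eosinophil markers in the results was not tested. Tet2-KO vehicle mouse 2 stood apart in megakaryocyte markers (Pf4, Itga2b, Vwf and Gp9), which summed to 5791 CPM in its basophil gate and to 277 to 884 CPM in the other 15 mice. Over the whole marrow WT vehicle mouse 2 was about as high, at 6195 CPM against 6303 CPM in Tet2-KO vehicle mouse 2. Without Tet2-KO vehicle mouse 2 IL1β called 5 members in place of 8 in Tet2-KO marrow. It also called 5 without Tet2-KO vehicle mouse 1 or Tet2-KO IL1β mouse 2 or 3. In Tet2-KO basophils none was called, with or without Tet2-KO vehicle mouse 2. The shares of all genes called without a mouse were not counted. The part of these markers in the results was not tested.

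All members except Fcer1g were higher in the basophil gate than in each of the 5 other gates in 16 of 16 mice. Mcpt8 had a median of 9959 CPM (lowest 7093, highest 14830) in basophils, 55.1 in Gata2+ progenitors, 54.2 in HSC-like cells and 15.7 in erythroid cells, which should not make it. Cpa3 had a median of 2266 CPM in basophils, 61.3 in Gata2+ progenitors, 64.0 in HSC-like cells and 4.89 in erythroid cells. The Gata2+ and HSC-like medians of both genes lay within the spread over mice of each other. Fcer1a was at a median of 991 CPM in basophils (733 to 1452) and 8.09 in Gata2+ progenitors, Cd200r3 at 332 CPM (171 to 453) and 3.00, Alox5 at 222 CPM (145 to 359) and 5.86, and Cyp11a1 at 181 CPM (114 to 304) and 2.68. The cytokines were low even in the gate, with Il6 at a median of 55.0 CPM (25.6 to 205) and Il4 between 6.49 and 44.2 CPM.

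**Figure D1:**
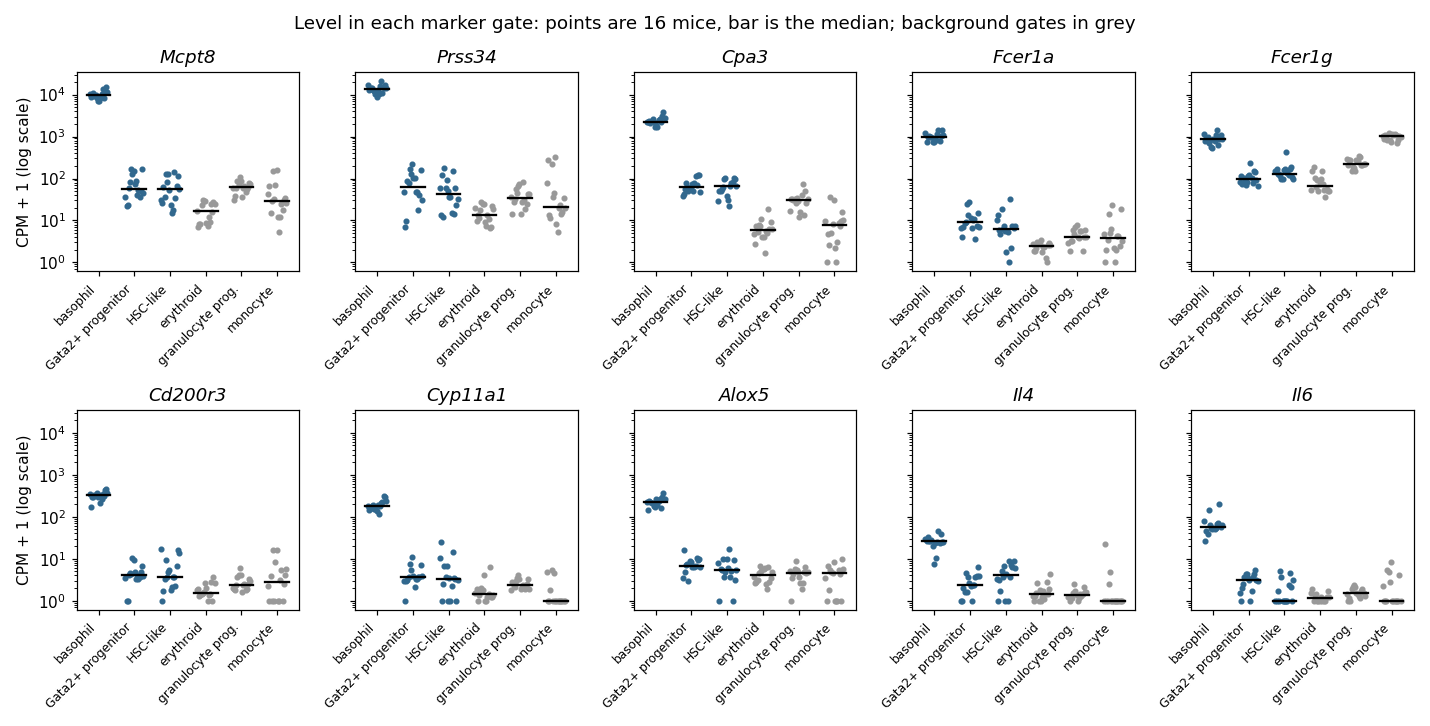
Levels of the 10 genes by gate (y axis, CPM of the UMIs summed per mouse and gate, on a log scale after adding 1; x axis, gates; each point is 1 of 16 mice, the bar is their median, and the 3 gates used only as background are in grey). Every gene but Fcer1g stood highest in the basophil gate in all 16 mice; the Fcer1g median was 872 CPM in basophils and 1044 CPM in monocytes.

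Fcer1g did not follow the other genes. Its median was 872 CPM in the basophil gate and 1044 CPM in the monocyte gate, and the basophil value was the higher in 4 of 16 mice. Granulocyte progenitors had a median of 216 CPM and Gata2+ progenitors 96.5 CPM. Over all assigned cells, basophil-gate cells held 15.8% of the Fcer1g UMIs, against 79.1% for Mcpt8, 80.4% for Prss34, 80.2% for Fcer1a, 75.4% for Cd200r3, 73.8% for Cyp11a1, 71.9% for Cpa3, 70.1% for Il6, 63.3% for Alox5 and 52.4% for Il4. Mcpt8, Prss34, Cpa3, Fcer1a and Cyp11a1 had more of their UMIs inside the gate than outside it in every mouse, the lowest share being 53.3% (Cpa3). The lowest mouse was at 47.6% for Cd200r3, 42.9% for Il6, 23.3% for Alox5 and 34.9% for Il4. The group medians of Il4 were 64.4% in WT vehicle and 48.8% to 49.4% in the other 3 groups, so in those 3 groups about as many of its UMIs lay outside the gate as inside.

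Free RNA from broken cells can be caught in any droplet, and erythroid cells, which should not make these genes, were read beside the other gates for that reason. A Mcpt8 UMI was found in 90.9% of basophils and 14.3% of erythroid cells, whose median depth was 11222 UMIs, and in 86.2% and 4.27% once each cell was thinned to 3000 UMIs (1795 of 4714 basophils and 122 of 5691 erythroid cells were shallower and left out). Thinned shares of Gata2+ progenitors and HSC-like cells with Mcpt8 were 9.54% and 11.2%, and unthinned shares 19.1% and 16.3%. Granulocyte progenitors (11.9% thinned, 26.2% unthinned) were above both, and monocytes were at 6.34% and 9.65%, so the Mcpt8 shares of the progenitor gates are not read as expression. Thinning takes the most UMIs from the deepest cells, the erythroid ones. For Cpa3 the thinned shares were 91.8% of basophils, 13.5% of Gata2+ progenitors, 13.7% of HSC-like cells and 1.58% of erythroid cells (unthinned 96.5%, 20.9%, 16.1% and 4.85%), beside 5.29% of granulocyte progenitors and 1.51% of monocytes. Il6 was found in 15.6% of thinned basophils and 0.0743% of thinned erythroid cells (unthinned 23.9% and 0.281%), and Il4 in 7.56% and 0.218% (unthinned 11.4% and 0.791%).

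The ratio of each gene's UMIs to those of Mcpt8, pooled over mice, differed between gates. For each Mcpt8 UMI there were 0.246 Cpa3 UMIs in basophils, 1.03 in Gata2+ progenitors and 1.00 in HSC-like cells, beside 0.340 in erythroid cells, 0.451 in granulocyte progenitors and 0.213 in monocytes. Il4 gave 0.00243 UMIs per Mcpt8 UMI in basophils, 0.0298 in Gata2+ progenitors and 0.0579 in HSC-like cells, beside 0.0450, 0.00747 and 0.00875 in the same 3 other gates. Prss34 gave 1.31, 1.02 and 0.996, beside 0.920, 0.606 and 1.17. These ratios carry no test, and the part of free RNA in them was not tested.

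IL1β raised 7 of the 10 genes in the summed marrow of Tet2-KO mice and lowered Fcer1g (edgeR's quasi-likelihood test on UMI sums per mouse, Benjamini-Hochberg adjusted over 13146 genes, called at an adjusted p under 0.05). Of all genes, 32% were called in this comparison, 15.8% as higher and 16.2% as lower. The median log2 difference was 1.13 over the 10 members and 0.01 over all genes tested. In a sum over the marrow, more basophils, fewer other cells and more RNA per basophil cannot be told apart.

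**Figure D2:**
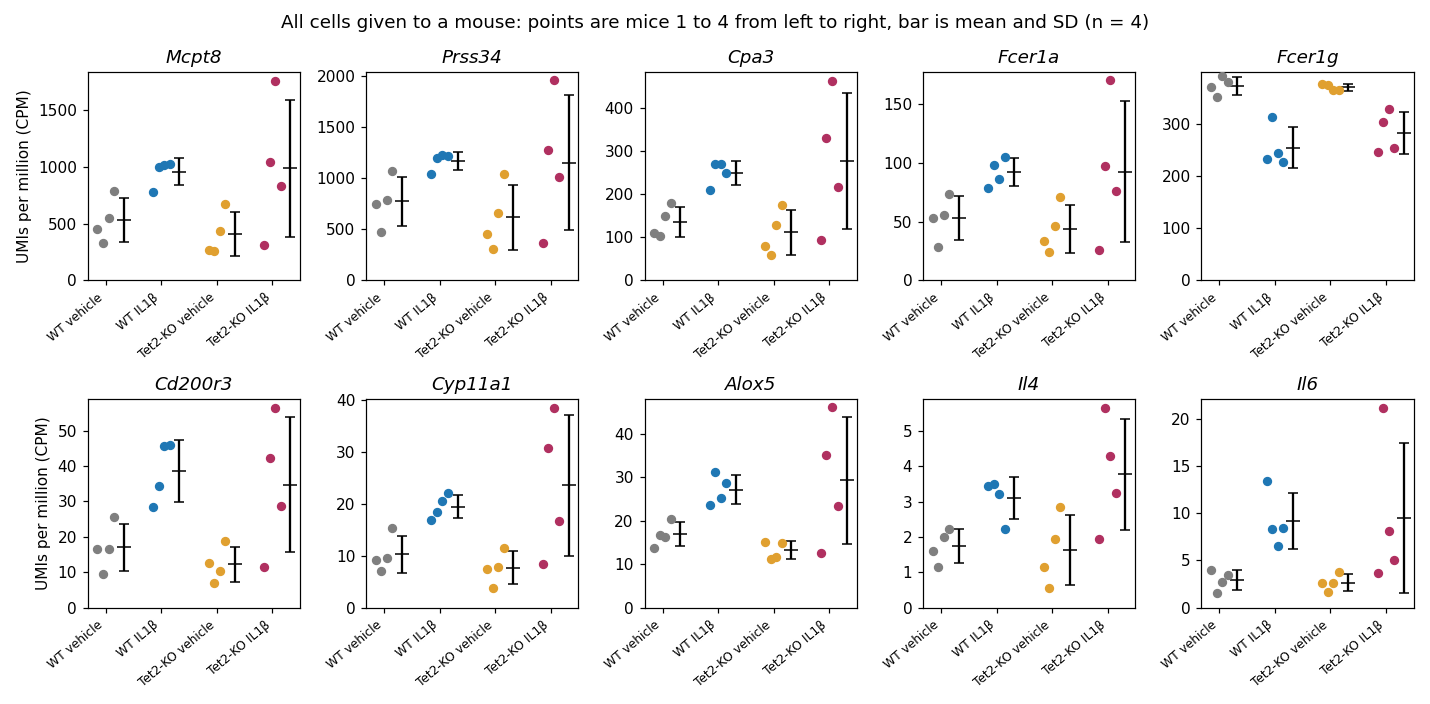
Levels of the 10 genes over all assigned marrow cells (y axis, CPM; x axis, the 4 groups; each point is 1 mouse, bars are the mean and SD of 4 mice). Tet2-KO IL1β mouse 1 was low for most genes, with a Mcpt8 level of 307 CPM against 835 to 1761 CPM in the other 3 mice.

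Among the proteases, Mcpt8 was at 264, 263, 436 and 671 CPM in Tet2-KO vehicle mice 1 to 4 and at 307, 1042, 1761 and 835 CPM in Tet2-KO IL1β mice. It was 2.27-fold higher with IL1β (log2 difference 1.18 ± 0.41 SE, edgeR adjusted p = 0.039). The groups overlapped through IL1β mouse 1, which stood below 2 vehicle mice. Cpa3 was at 81.0, 59.3, 130 and 176 CPM with vehicle and 93.6, 332, 465 and 218 CPM with IL1β (1.22 ± 0.39, edgeR adjusted p = 0.0255), with the same mouse lowest. Prss34 differed by 0.81 ± 0.41 (edgeR adjusted p = 0.144), which did not pass.

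Both enzymes of lipid chemistry rose. Cyp11a1 was at 7.44, 3.75, 7.77 and 11.5 CPM in Tet2-KO mice with vehicle and 8.34, 30.7, 38.3 and 16.7 CPM with IL1β (1.51 ± 0.37, edgeR adjusted p = 0.00691). Alox5 was at 11.2 to 15.2 CPM with vehicle and at 12.5, 35.0, 46.2 and 23.3 CPM with IL1β (1.06 ± 0.27, edgeR adjusted p = 0.00877). In both genes IL1β mouse 1 lay inside the vehicle range and the other 3 mice above it. Of the receptors, Cd200r3 rose by 1.41 ± 0.38 (edgeR adjusted p = 0.0113), while Fcer1a differed by 0.99 ± 0.42 (edgeR adjusted p = 0.0865).

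The cytokines also rose in Tet2-KO marrow. Il6 was at 2.58, 1.64, 2.58 and 3.78 CPM with vehicle and at 3.67, 21.1, 8.14 and 5.08 CPM with IL1β (1.71 ± 0.44, edgeR adjusted p = 0.00862). IL1β mouse 2 was the highest of the 16 mice, and mouse 1 lay inside the vehicle range. Il4 was at 0.547 to 2.83 CPM with vehicle and 1.94 to 5.64 CPM with IL1β (1.08 ± 0.37, edgeR adjusted p = 0.034), and the groups overlapped. Leaving out 1 mouse gave 5 to 10 members called, in fits whose shares of all genes called were not counted. The lowest count came without Tet2-KO vehicle mouse 1 or 2 or IL1β mouse 2 or 3, each of which ended the calls of Mcpt8, Cpa3 and Il4. With a simple ratio rule for the hashtags only Il6 was called, where 13.3% of all genes were, and with a mixture model for the hashtags, chosen after seeing the data, 9 were, beside 33% of all genes.

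In WT marrow 2 of the 10 genes were called, 1 higher and 1 lower, where 26.1% of all genes were called, 13.4% as higher and 12.7% as lower. So 2 of 10 is no higher than the share of all genes called. Il6 rose from 4.01, 1.60, 2.72 and 3.50 CPM with vehicle to 13.4, 8.34, 6.57 and 8.42 CPM with IL1β (1.45 ± 0.45, edgeR adjusted p = 0.027). The groups did not overlap, and without WT vehicle mouse 2, 3 or 4 or WT IL1β mouse 1 the adjusted p rose to at most 0.0841 by edgeR. The Il6 call was also lost with pools in place of mice (edgeR adjusted p = 0.0586), where Alox5 was the only member called, and without the cell filter (edgeR adjusted p = 0.0661). Fcer1g fell from 371, 351, 391 and 380 CPM to 233, 313, 245 and 228 CPM (by 0.66 ± 0.12 on the log2 scale, edgeR adjusted p = 0.00177), with no overlap. The other 8 genes had log2 differences between 0.49 (Prss34) and 1.01 (Cd200r3, edgeR adjusted p = 0.0637). The median over the members was 0.71, against 0.02 over all genes. The hashtag mixture model called 7 of the 10, beside 33.1% of all genes.

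Fcer1g was the member that moved the other way. In Tet2-KO marrow it was at 377, 375, 364 and 366 CPM with vehicle and 246, 304, 329 and 253 CPM with IL1β (fell by 0.49 ± 0.12, edgeR adjusted p = 0.0056), again with no overlap. The share of cells in the monocyte gate, where Fcer1g was highest, had a median of 5.02% with vehicle and 2.03% with IL1β in WT, and 3.72% and 1.88% in Tet2-KO. Within the basophil gate Fcer1g also had negative differences, by 0.64 ± 0.20 in WT (edgeR adjusted p = 0.0584) and 0.36 ± 0.19 in Tet2-KO (edgeR adjusted p = 0.264). The parts of cell makeup and of level per cell in the marrow value were not tested separately. With the ratio rule, the mixture model or pools in place of mice, the 2 marrow calls of Fcer1g were lost.

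No member was called between the genotypes in summed marrow, at either treatment or in the interaction (the IL1β effect in Tet2-KO minus that in WT). Of all genes 0.0152% were called with IL1β, 0.0152% with vehicle and 0% in the interaction. No member had an unadjusted p under 0.05 in these 3 comparisons, beside 8.81%, 3.77% and 3.1% of all genes. With IL1β the member differences ran from -0.08 (Cd200r3) to 0.34 (Cyp11a1). So a call in Tet2-KO and none in WT is not a difference between the genotypes, which the interaction tested (Mcpt8 0.44 ± 0.58, edgeR adjusted p = 1).

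**Figure D3:**
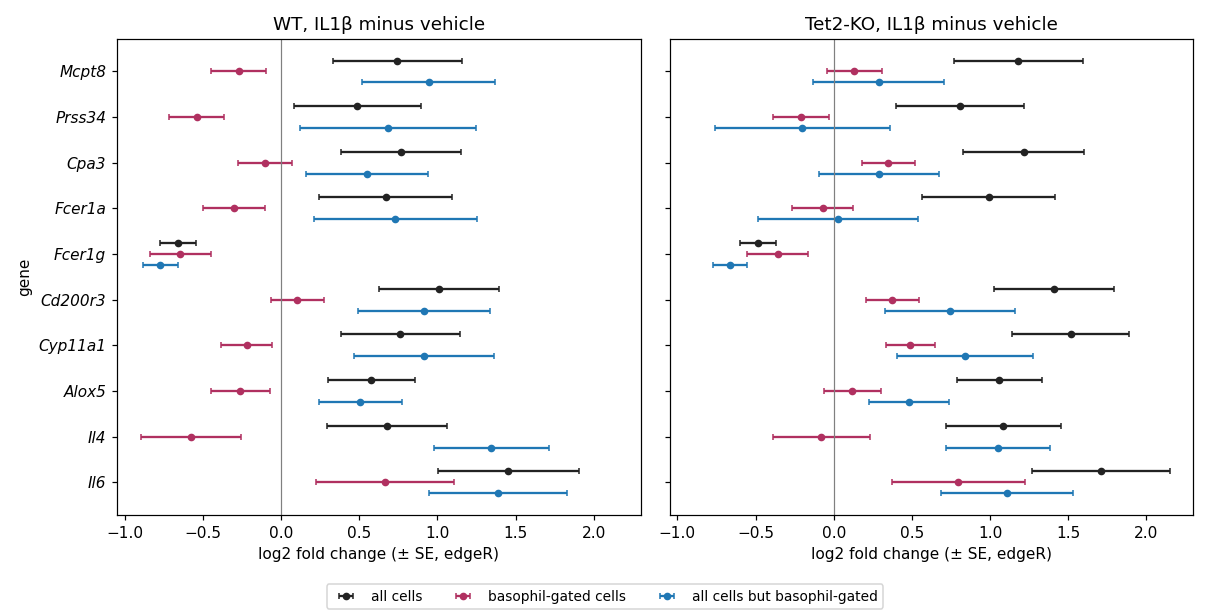
IL1β against vehicle for the 10 genes in WT and Tet2-KO mice (x axis, log2 fold change with its SE; y axis, genes; panels, the genotypes; black, all assigned cells; red, basophil-gate cells; blue, all cells but those of the basophil gate). Over all cells 9 of 10 differences were above 0 in both genotypes, while in the basophil gate 2 of 10 were above 0 in WT and 6 of 10 in Tet2-KO.

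The share of basophil-gate cells was measured beside these sums. Fewer other cells among the lineage-depleted cells would raise this share too. The share was 4.71%, 3.87%, 5.79% and 8.83% of the cells of WT vehicle mice 1 to 4 and 9.24%, 9.54%, 11.6% and 12.0% of WT IL1β mice. The means were 5.80% ± 2.17 and 10.6% ± 1.42 (SD, n = 4; exact permutation test, two-sided, p = 0.0286, adjusted over 12 comparisons p = 0.274), and 0.0286 is the smallest p that 4 against 4 mice allow. In Tet2-KO mice it was 3.92%, 2.94%, 3.80% and 5.56% with vehicle and 3.72%, 12.0%, 15.3% and 9.54% with IL1β (means 4.05% ± 1.09 and 10.1% ± 4.88, exact permutation p = 0.114, adjusted p = 0.274). Tet2-KO IL1β mouse 1 lay inside the vehicle range and the other 3 above it. It had 1426 cells and a median of 9067 UMIs per cell, the most of all mice. By the hashtag mixture model 6.70% of its cells were basophils and the exact permutation p was 0.0286 (adjusted p = 0.171). None of the 12 share comparisons passed adjustment, and since each reaches 0.0286 at best, several would have to lie there at once to pass.

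With the basophil-gate cells taken out of the marrow sums, the IL1β differences of the proteases shrank in Tet2-KO mice to 0.29 for Mcpt8, 0.29 for Cpa3 and -0.20 for Prss34. The count of members called was then 2, Il4 (1.05 ± 0.33, edgeR adjusted p = 0.0253) and Fcer1g (-0.66 ± 0.11, edgeR adjusted p = 0.000959), beside 30.5% of all genes. Il6 was at 1.11 ± 0.42, against 1.71 with all cells, and was no longer called (edgeR adjusted p = 0.0569). In WT mice the differences were 0.94 ± 0.42 for Mcpt8 (edgeR adjusted p = 0.114), 0.55 ± 0.39 for Cpa3 and 0.69 ± 0.56 for Prss34, against 0.74, 0.77 and 0.49 with all cells, and none was called either way. There Il4 (1.34 ± 0.37, edgeR adjusted p = 0.015) and Il6 (1.39 ± 0.44, edgeR adjusted p = 0.0305) were called with Fcer1g, beside 25.5% of all genes, so Il4 passed in both genotypes once the gated basophils were removed. Over all 16 mice Il4 had 1105 UMIs in the marrow, 579 of them in the basophil gate. The Il4 calls outside the gate therefore rest on few UMIs. Cells outside the gate, some of them with Ms4a2, remain in these sums.

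Within the basophil gate, IL1β called none of the 10 genes in either genotype, where 5.22% of 8579 genes were called in WT and 8.4% in Tet2-KO. At an unadjusted p under 0.05 there were 2 members in each genotype, beside 21.1% of all genes in WT and 24.6% in Tet2-KO, so 2 of 10 is near the share of all genes. DESeq2 called 2 members in WT and 1 in Tet2-KO, beside 6.8% and 12.5% of the genes it adjusted. Beside Fcer1g, above, Prss34 had a negative difference in WT, at 17306, 12635, 14649 and 14564 CPM with vehicle and 12554, 11916, 10478 and 8543 CPM with IL1β (-0.54 ± 0.18, edgeR adjusted p = 0.0758). All 4 IL1β mice of WT lay below the lowest vehicle mouse. Mcpt8 was at 10087, 8526, 9972 and 10618 CPM in WT with vehicle and 9142, 9946, 8468 and 7151 CPM with IL1β (-0.27 ± 0.18, edgeR adjusted p = 0.401), with overlap. In Tet2-KO basophils Mcpt8 ranged from 7093 to 13507 CPM with vehicle and 8259 to 14830 CPM with IL1β (0.13 ± 0.17, edgeR adjusted p = 0.692). Cyp11a1 was the member nearest a call there, at 193, 114, 180 and 212 CPM with vehicle and 222, 304, 299 and 233 CPM with IL1β, with no overlap (0.49 ± 0.16, edgeR adjusted p = 0.0552). It passed with DESeq2 (adjusted p = 0.0253), with no low-count filter, with the pool as a block and without WT IL1β mouse 1 or Tet2-KO IL1β mouse 1 or 4. Il4 was at 6.49 to 26.4 CPM in WT mice with IL1β and at 23.2 to 37.2 CPM in Tet2-KO mice with IL1β, and its IL1β differences were -0.58 ± 0.32 in WT and -0.08 ± 0.31 in Tet2-KO.

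**Figure D4:**
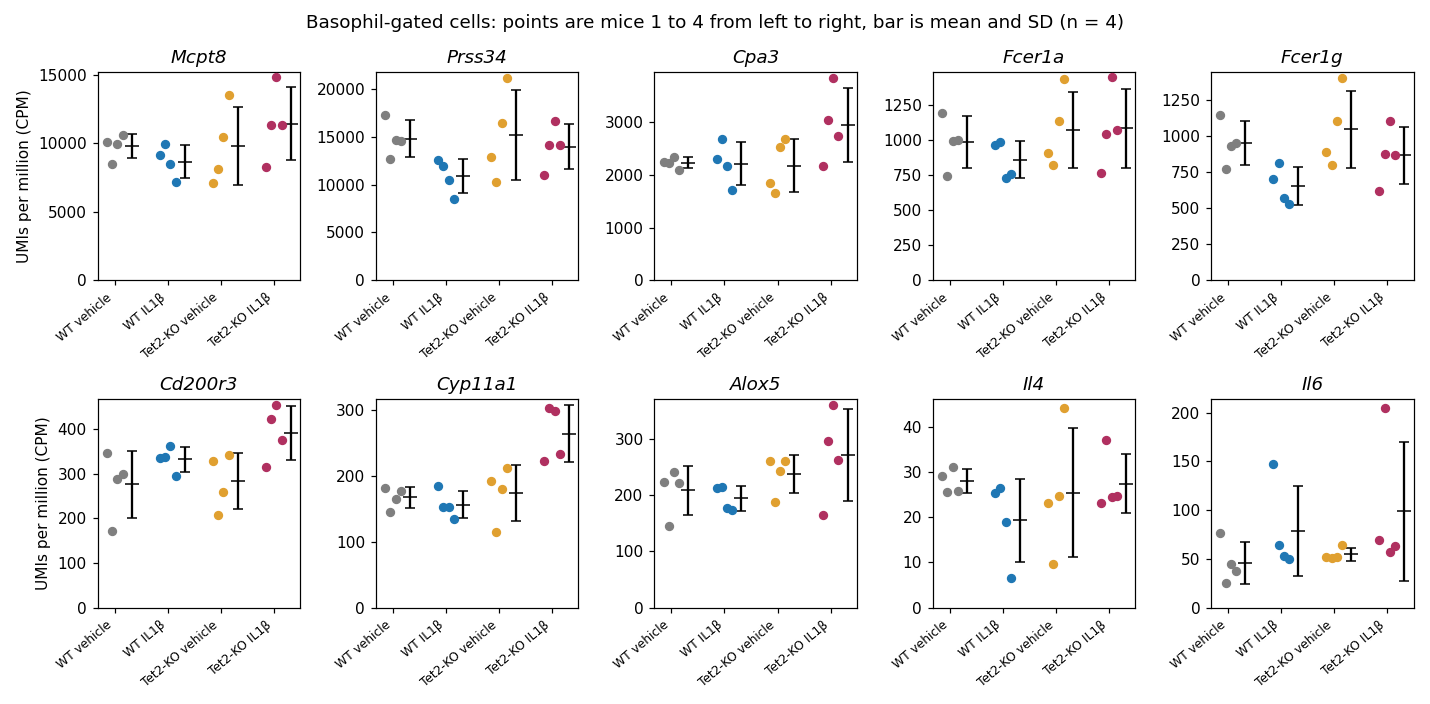
Levels of the 10 genes within the basophil gate (y axis, CPM of UMIs summed per mouse over the gate's cells; x axis, the 4 groups; each point is 1 mouse, bars are the mean and SD of 4 mice). Cyp11a1 was at 222 to 304 CPM in Tet2-KO mice with IL1β and at 135 to 185 CPM in WT mice with IL1β.

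Il6 in basophils was uneven between mice. In WT mice with IL1β it was at 148, 64.2, 52.9 and 50.0 CPM, and in Tet2-KO mice with IL1β at 69.5, 205, 57.2 and 63.2 CPM. With vehicle it was at 76.5, 25.6, 44.3 and 37.6 CPM in WT and between 50.9 and 64.7 CPM in Tet2-KO. A single mouse in each IL1β group stood far above the other 3. The IL1β differences were 0.66 ± 0.44 in WT (edgeR adjusted p = 0.417) and 0.80 ± 0.43 in Tet2-KO (edgeR adjusted p = 0.257).

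Cyp11a1 was the only member called between genotypes, in basophils of mice given IL1β, where 0.105% of genes were called and 0.0933% as higher. It was at 185, 153, 153 and 135 CPM in WT and at 222, 304, 299 and 233 CPM in Tet2-KO mice. The groups did not overlap, and the Tet2-KO level was 1.74-fold higher (0.80 ± 0.15, edgeR adjusted p = 0.0345). With vehicle the levels were 145 to 182 CPM in WT and 114 to 212 CPM in Tet2-KO (0.09 ± 0.17, edgeR adjusted p = 1). The interaction was 0.71 ± 0.23 with an adjusted p of 0.812 by edgeR, so the IL1β effects of the genotypes were not shown to differ. The call was lost with the hashtag ratio, with pools as replicates, without the cell filter and in 3 other forms of the gate (looser 0.67, stricter 0.68, without Ms4a2 0.38). It was lost too in 10 of 16 fits that each left out 1 mouse (all 4 WT vehicle mice, WT IL1β mice 2, 3 and 4, Tet2-KO vehicle mouse 3 and Tet2-KO IL1β mice 2 and 3), with log2 differences of 0.72 to 0.92 and edgeR adjusted p up to 0.219.

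The other 9 members were also above 0 in this comparison, from 0.28 (Cd200r3) to 0.55 (Alox5, edgeR adjusted p = 0.261), and none passed. Their median with Cyp11a1 was 0.44, against 0.00 over all genes, and 6 of the 10 had an unadjusted p under 0.05 beside 895 of 8579 genes (10.4%). With vehicle no member was called, nor in the interaction, where 0.0117% and 0% of genes were called. The members were counted in the same cells, so their common sign is not 10 separate observations.

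In the Gata2+ progenitor gate, 6 of the 10 genes passed the filter on low counts (Mcpt8, Prss34, Cpa3, Fcer1a, Fcer1g and Alox5). Mcpt8 was called as higher with IL1β in WT mice, the only member called, where 16.4% of 9931 genes were called and 7.41% as higher. So 1 of 6 is near the share of all genes called. Mcpt8 was at 35.4, 21.3, 22.1 and 57.0 CPM with vehicle and 80.6, 167, 126 and 148 CPM with IL1β, with no overlap (3.11-fold, 1.64 ± 0.43, edgeR adjusted p = 0.0148). Fcer1a (1.21 ± 0.42, edgeR adjusted p = 0.0548) and Prss34 (1.55 ± 0.61, edgeR adjusted p = 0.0891) did not pass. Cpa3 differed by -0.10 ± 0.29 (edgeR adjusted p = 0.866).

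Markers of other cells moved with it in the WT mice of this gate. The summed level of 5 granulocyte progenitor markers was 2062 to 3565 CPM with vehicle and 4279 to 7001 CPM with IL1β, that of 7 basophil markers (Ms4a2 at 0) 219 to 290 and 317 to 456 CPM, and that of 4 eosinophil markers 1.01 to 109 and 89.0 to 361 CPM. The granulocyte and basophil sums did not overlap between the groups, and the part of these markers in the result was not tested. Mcpt8 in erythroid cells moved too, from 5.94 to 16.1 CPM in WT vehicle mice to 21.8 to 29.2 CPM in WT IL1β mice, and its part in the progenitor value was not tested. With at least 2 UMIs each of Gata2 and Kit the Mcpt8 difference was -0.13, and the call was also lost with the hashtag ratio, the mixture model (1.21), no cell filter, and without WT vehicle mouse 1 (edgeR adjusted p = 0.0503). In Tet2-KO mice none of the 6 genes was called, against 16% of all genes. Mcpt8 was there at 74.1, 84.0, 39.3 and 53.2 CPM with vehicle and 36.2, 49.7, 166 and 44.0 CPM with IL1β (0.17 ± 0.40, edgeR adjusted p = 0.827), where a single mouse was high. The interaction of Mcpt8 was -1.47 ± 0.59 (edgeR adjusted p = 1). Between genotypes no member was called with IL1β, with vehicle or in the interaction, where 0.0101%, 0.0201% and 0% of genes were called.

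The HSC-like gate was mixed. Its 7 HSC markers summed to 351 to 1057 CPM per mouse, while megakaryocyte markers summed to 19824 CPM in Tet2-KO vehicle mouse 2 and to 122 to 7896 CPM in the other 15 mice, and their part in the results was not tested. In this gate 4 members passed the filter (Mcpt8, Prss34, Cpa3 and Fcer1g), and none was called in any comparison. The share of all genes called by IL1β was 4.13% in WT and 8.38% in Tet2-KO, and 0% between genotypes. Cpa3 was at 29.5, 21.5, 65.8 and 78.1 CPM in Tet2-KO mice with vehicle and 82.0, 104, 96.9 and 65.3 CPM with IL1β (0.84 ± 0.31, edgeR adjusted p = 0.0971). The groups overlapped through IL1β mouse 4. Without any cell that held Ms4a2 it was called (1.20, edgeR adjusted p = 0.0275), as with the mixture model, without very deep cells and without Tet2-KO vehicle mouse 4. Mcpt8 was called in Tet2-KO without that mouse too (1.81, edgeR adjusted p = 0.0197), against 0.49 ± 0.52 with it. Mcpt8 differed by 1.15 ± 0.55 in WT (edgeR adjusted p = 0.259).

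Basophil-gate cells with a UMI of Kit or Cd34, genes of progenitors, were set apart as early cells (1705 cells, median 5075 UMIs) from those with neither (3009 cells, median 3005 UMIs). Of 16 mice, 15 had at least 10 cells of each, and WT vehicle mouse 2 was left out. All members but Il4 were higher in late cells in 15 of 15 mice. Mcpt8 had a median of 5156 CPM in early cells (3711 to 8711) and 14406 CPM in late cells (9940 to 18788), a median log2 difference of -1.33. Cd200r3 differed most, at 173 CPM in early and 506 CPM in late cells (-1.64), and Cpa3 by -0.91, at 1584 and 3140 CPM. Il4 was higher in late cells in 11 of 15 mice (-0.84).

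**Figure D5:**
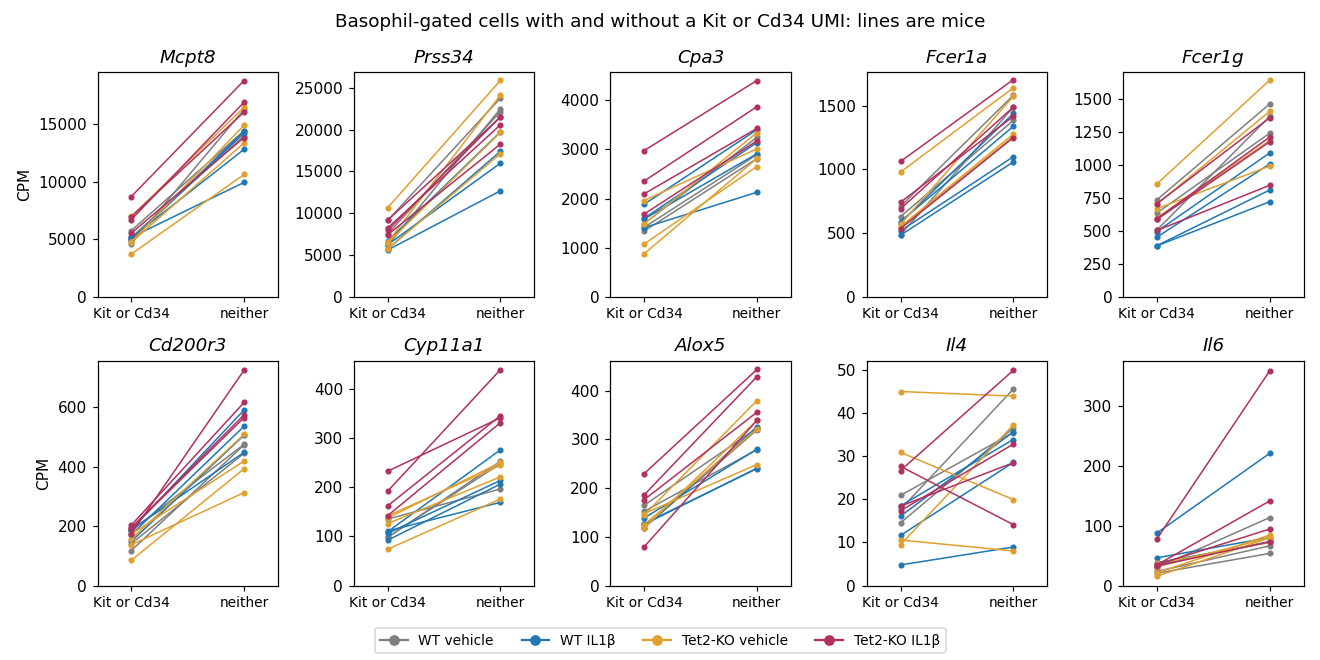
Levels of the 10 genes in early (Kit or Cd34 detected) and late basophil-gate cells (y axis, CPM from 0; x axis, early cells left and late cells right; each line joins the values of 1 of 15 mice, coloured by group). Every line rises from early to late cells except those of 4 mice for Il4.

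The remaining members lay between these values. Prss34 differed by -1.44, Il6 by -1.34, Fcer1a by -1.15, Cyp11a1 by -1.09, Alox5 by -1.01 and Fcer1g by -0.99. Early cells made up a median of 33.2% of the gate in WT vehicle, 39.9% in WT IL1β, 32.5% in Tet2-KO vehicle and 38.6% in Tet2-KO IL1β mice, within the spread over mice (24% to 56.6% over all). Early cells were the deeper ones, so a UMI of Kit or Cd34 is also easier to find where more UMIs were counted. The basophil gate asks for a fixed number of UMIs of its genes, which is a larger part of a shallower cell. The part of depth in the early and late levels was not tested.

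Il4 and Il6 were each counted in a minority of basophils, and both together in fewer still. Of 4714 basophils, 1126 held an Il6 UMI, 538 an Il4 UMI and 148 both. Il4 was found in 13.1% of cells with Il6 and 10.9% of cells without, whose median depths were 3555.5 and 3610 UMIs. By group the shares with and without Il6 were 10.5% and 12.2% in WT vehicle, 8.76% and 9.24% in WT IL1β, 17.1% and 11.1% in Tet2-KO vehicle and 16.8% and 11.7% in Tet2-KO IL1β cells. Cells of a mouse are not replicates, and no test was run.

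Related genes were read from 7 fixed lists of 72 genes. The lists hold Hdc and Il3ra, which the basophil gate uses, and Gata2 and Kit, which the Gata2+ gate uses. The values of these genes in their own gate depend on the gate. In the basophil gate of Tet2-KO mice, where 8.4% of all genes were called and 2.96% as higher, IL1β raised 5 of 56 list genes tested. These were 2 of 8 cytokines and chemokines, the chemokine Ccl6 (1.61 ± 0.31, edgeR adjusted p = 0.00539), and Hgf (0.62 ± 0.19, edgeR adjusted p = 0.0411). The others were 1 of 9 growth and alarmin receptors, the IL33 receptor gene Il1rl1 (0.77 ± 0.18, edgeR adjusted p = 0.0128), 1 of 13 genes of IgE receptor signalling, the kinase gene Fyn (0.76 ± 0.19, edgeR adjusted p = 0.0197), and 1 of 12 transcription factors, Stat5b (0.66 ± 0.19, edgeR adjusted p = 0.035). No granule or lipid mediator gene was called there, and none fell. List medians ran from 0.02 for granule and amine genes to 0.85 for cytokines and chemokines, beside 0.02 over all genes.

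In WT basophils 3 of the 56 rose and 3 fell, where 1.73% of all genes were called as higher and 3.5% as lower. The signalling genes Vav1 (0.69 ± 0.15, edgeR adjusted p = 0.00909) and Btk (0.49 ± 0.12, edgeR adjusted p = 0.0191) rose, 2 of 13 tested. The cytokine gene Tnf rose from 2.55 to 23.4 CPM in the group means (3.12 ± 0.75, edgeR adjusted p = 0.0194), 1 of 8. Ctsg, a granule protease gene of neutrophil precursors (-0.79 ± 0.22, edgeR adjusted p = 0.0389), Spi1, a transcription factor gene of myeloid cells (-0.57 ± 0.12, edgeR adjusted p = 0.00957), and Crlf2, a chain of the TSLP receptor (-0.70 ± 0.20, edgeR adjusted p = 0.0403), fell, each the only call of its list. None of the 8 mast cell genes passed the filter in this gate.

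In Gata2+ progenitors of WT mice IL1β raised 3 of 8 granule and amine genes, led by the histidine decarboxylase gene Hdc (1.59, edgeR adjusted p = 0.00752), 4 of 14 signalling genes, 2 of 7 receptors, 2 of 6 lipid mediator genes, 3 of 8 cytokines and 5 of 11 transcription factors, and lowered none. That is 19 of 55 genes tested, where 7.41% of all genes were called as higher and 8.97% as lower, in the mice whose granulocyte progenitor, basophil and eosinophil marker sums are given above. Hdc, Il3ra and Lmo4 are among the 19 and also in the basophil marker sum, so that sum is not separate from these calls. In Tet2-KO progenitors the counts for the same lists were 0, 1, 1, 0, 3 and 2, or 7 of 55, beside 6.11% of all genes called as higher. Hdc also rose in HSC-like cells of both genotypes (1.92 in WT, edgeR adjusted p = 0.00987, and 1.57 in Tet2-KO, edgeR adjusted p = 0.00914), as did Tnf and Cxcl2. These were among 5 of 50 list genes tested that rose in WT HSC-like cells, where Crlf2 fell (-0.62, edgeR adjusted p = 0.0473), and 8 of 50 that rose in Tet2-KO cells. Of all genes 1.78% were called as higher and 2.35% as lower in WT, and 3.56% as higher in Tet2-KO. The granulocyte progenitor markers of that gate summed to 2455 to 5081 CPM with vehicle and 5256 to 9124 CPM with IL1β in WT, with no overlap, and to 1684 to 5363 and 4337 to 8861 CPM in Tet2-KO, and their part was not tested. In summed marrow of Tet2-KO mice 25 of 62 list genes tested rose and none fell, beside 15.8% of all genes called as higher and 16.2% as lower. In WT marrow 18 of the 62 rose and 1 fell, beside 13.4% and 12.7%. No list gene was called between genotypes in any gate.

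Across 96 sums (16 mice by 6 gates), likeness of log2 CPM was ranked among 12676 genes, and only genes outside the members are named here. Those most like Mcpt8 were Cdh1 (Pearson's r = 0.954), Rnase12 (0.947) and Prss28 (0.933). For Il6 they were Cdh1 (0.934), Edem3 (0.921) and Prss28 (0.917), and for Cpa3 Nucb1 (0.926), 4930519L02Rik (0.920) and Slc7a8 (0.918). Fcer1g was most like Tyrobp (0.961), Ly6e (0.920) and Lgals1 (0.905). Among the members the closest pair was Prss34 and Mcpt8 (0.978) and the least alike Fcer1g and Cpa3 (0.293). These sums share mice, libraries and the 6 gates, so the values describe the gates more than the mice.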

How the data were processed

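Lineage-depleted marrow cells were profiled as 3′ single-cell libraries with hashtag antibodies. The authors made the matrices with Cell Ranger 3.1.0 on GRCm38 (mm10), and the submitters' notes also name Seurat 3.2.3. The deposited values are raw UMI counts of each gene in each barcode, not normalized, and likewise counts of the hashtags. Barcodes with at least 750 genes and at most 10% mitochondrial UMIs were kept, and HTODemux (Seurat 5.3.0) gave cells to mice. Cells with both hashtags were left out as doublets, and doublets within a mouse were not sought. UMIs were summed per mouse and gate (16 mice, each with at least 10 cells per gate and 4388604 to 44152768 UMIs in all) and tested with edgeR 4.0.16 (filterByExpr, TMM, quasi-likelihood, all 4 groups in 1 fit, R 4.3.3), with Benjamini-Hochberg adjustment over all genes tested. DESeq2 1.42.0 was an alternative, as were other scalings, filters, hashtag rules, gates, pools, replicate blocks and leaving out each mouse. Shares used the two-sided exact permutation test. CPM are UMIs per 1000000 UMIs of a sum; binomial and counting errors of depth come on top of the spread between mice. The genes named are the 10 members, list genes that were called, at most 3 per list and comparison and by smallest p, and, for each of 4 members, the 3 genes outside the members most like it by Pearson's r. The members and the lists were chosen with earlier results of these data known. The code was tested on simulated data. The numbers 1 to 4 of the mice were checked for pairing through deviations from the group means. In whole marrow these correlated at a mean of 0.048 between same-numbered mice (-0.31 to 0.43) and -0.013 between others. By pool number the means were 0.065 and -0.061 there. The mean was the higher for the same number in whole marrow and in every tested gate. These values do not decide whether the numbers pair the mice, and the main fit did not pair them. The labels do not say that mice of a group came from separate cages or litters, so p-values measure the spread between these mice. Mice of a pool also share a library, and the main fit counted them as separate mice. Its p-values therefore do not take the shared library into account. Gene positions came from the GENCODE annotation on GRCm38 and promoter sequences from RefSeq (GRCm38.p6), where all 10 members matched.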

Additional observations from a re-analysis of the deposited data

Results flagged for a closer look

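In groups of 4 mice, a mouse was marked where its gap to the nearest other mouse exceeded Dixon's critical share of the group's range. This held in 20 of 172 groups of member levels and cell shares, where chance marks about 1 in 20 (8.6). Of the 20 marks, 5 rest on a mouse with 0 or 1 UMI, and a lone UMI beside mice at 0 always meets the rule. In the basophil gate Il6 was marked 3 times, at 148 CPM in WT IL1β mouse 1, 205 CPM in Tet2-KO IL1β mouse 2 and 64.7 CPM in Tet2-KO vehicle mouse 4. Il4 was marked at 37.2 CPM in Tet2-KO IL1β mouse 2, the mouse that was also highest for Il6. In summed marrow Mcpt8 of WT IL1β mouse 1 was low, at 780.0 CPM.

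Tet2-KO IL1β mouse 3 was high in the Gata2+ progenitor gate for 4 members, at 166 CPM for Mcpt8, 160.4 CPM for Prss34, 6.27 CPM for Cyp11a1 and 5.43 CPM for Il4. In the same gate Cyp11a1 of WT vehicle mouse 2 and Il4 of Tet2-KO vehicle mouse 2 were at 0 CPM.

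Tet2-KO vehicle mouse 4 was high in the HSC-like gate for 3 members, at 139.7 CPM for Mcpt8 (102 UMIs), 149 CPM for Prss34 (109 UMIs) and 31.5 CPM for Fcer1a (23 UMIs). Its Il6, at 1.37 CPM, was 1 UMI. Also there, Fcer1g was at 421 CPM in Tet2-KO vehicle mouse 2, the mouse with the high megakaryocyte markers, Fcer1a at 17.5 CPM in WT IL1β mouse 1, Cd200r3 at 16.1 CPM in WT vehicle mouse 1, Il6 at 0.683 CPM (1 UMI) in WT vehicle mouse 3 and Cyp11a1 at 0 CPM in Tet2-KO IL1β mouse 3. Tet2-KO vehicle mouse 4 had 186 cells and 729921 UMIs in that gate, and Tet2-KO IL1β mouse 3 had 302 cells and 2394000 UMIs in the Gata2+ progenitor gate.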

How the results depend on the processing

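Of 4160 member values under other settings, 3846 kept their direction and their side of the threshold, 191 changed sign but were called in neither fit, 61 lost a call, 61 gained one and 1 called value reversed, Mcpt8 in WT Gata2+ progenitors at -0.13 with the stricter gate. Counts of members called by IL1β in WT marrow (2) were 7 with the hashtag mixture and 1 each with the hashtag ratio (Il6), no cell filter (Fcer1g) and pools (Alox5), and 1 to 4 leaving out a mouse (4 without Tet2-KO IL1β mouse 1). In Tet2-KO marrow (8) they were 1 with the hashtag ratio, 5 with no cell filter and 2 without basophil-gate cells, and 5 to 10 leaving out a mouse. In WT basophils (0) they were 2 with DESeq2, the mixture, no low-count filter and the strict gate, and 0 to 2 leaving out a mouse (2 without Tet2-KO vehicle mouse 2 or 4). In Tet2-KO basophils (0) they were 1 with DESeq2 and 2 with no low-count filter, and 0 to 1 leaving out a mouse. Between genotypes in IL1β basophils (1) they were 0 with the ratio, pools, no cell filter and the loose, strict and Ms4a2-free gates, 3 with no low-count filter, and 0 to 1 leaving out a mouse. In WT Gata2+ progenitors (1) they were 0 with the ratio, no cell filter and the strict gate, 2 with DESeq2, the mixture, no deep cells and pools, 3 with no low-count filter, and 0 to 4 leaving out a mouse (0 without WT vehicle mouse 1, 4 without WT IL1β mouse 1). In Tet2-KO HSC-like cells (0) they were 1 with the mixture, no deep cells and no cell with Ms4a2, and 0 to 2 leaving out a mouse (2 without Tet2-KO vehicle mouse 4). The causes were not tested. Shares of all genes called were not counted in most of these fits. The counts therefore do not show whether the members or all genes moved. With the number 1 to 4 as a replicate block the counts were those of the fit without it, 2 and 8 in marrow, and with the pool as a replicate block 3 and 9 in marrow, 1 and 1 in WT and Tet2-KO basophils and 2 in WT Gata2+ progenitors. Il4 in basophils rests on 538 cells with a UMI, and depth limits what can be seen of it in the other gates.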
